A study of Homo sapiens with 4 samples.

Results

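The comparison described here was that of METTL3 K177Q with METTL3 WT within the polysome fraction of MDA-MB-231 cells. MDA-MB-231 is a human triple-negative breast cancer cell line of basal, mesenchymal-like character. The cells had been depleted of METTL3 and reconstituted by lentivirus with Myc-tagged METTL3 WT or with METTL3 K177Q, in which a lysine is replaced by glutamine to mimic its acetylation. Both cultures therefore shared the depletion and the viral expression of METTL3, and the sources used here do not say that the reconstituted cells were single clones. Before lysis both were treated with cycloheximide at 100 µg/mL for 5 min, and lysates were separated on a 10 to 50% sucrose gradient whose fractions were pooled as sub-polysome or polysome material. The polysome RNA was poly(A)-selected and sequenced, and 1 library per genotype, labelled replicate 2 in each case, was analysed. The members were all genes whose FPKM (fragments per kilobase of transcript, scaled to the depth of the library) averaged 1 or more over the 2 polysome libraries, 10667 of the 28198 genes in the table. Each gene was compared as log2((K177Q + 0.1)/(WT + 0.1)) of its FPKM, here called the log2 ratio, and 1.5-fold in either direction was the threshold for calling it higher or lower. With 1 library per genotype there was no replicate error and no test, so every difference below is one between 2 libraries. The numbers below that carry no error are single values. In bulk RNA a change in the makeup of the culture and a change in RNA per cell cannot be told apart.

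METTL3 is the catalytic subunit of the complex that deposits N6-methyladenosine (m6A) on nuclear mRNA, and in the cytosol it has also been linked to translation through the initiation factor eIF3. Polysomes are mRNAs that carry several ribosomes at once. The amount of an mRNA in the polysome fraction depends both on how much of that mRNA the cell holds and on the share of it that is being translated. A polysome value taken alone, as here, cannot separate these. Ribosomal protein mRNAs and those of several elongation factors begin with a 5′ terminal oligopyrimidine (TOP) tract, a cytosine at the first transcribed base followed by a run of pyrimidines. This tract lets their translation be switched together, chiefly through mTOR and the RNA-binding protein LARP1.

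The sequences around annotated transcription starts are shown first, because the ribosomal protein genes, many of which begin with such a tract, were lower in K177Q almost without exception. Each run covers 30 bases from 10 bases before the annotated RefSeq start (GRCh38.p14), 5′ to 3′ on the strand of the gene, and capitals mark a tract that starts at the annotated start with C and continues with at least 4 further C or T. The first 5 are ribosomal protein genes, followed by the elongation factor gene EEF1A1 and by 3 host genes of small nucleolar RNAs (snoRNAs). All of these have the tract and so do not stand for their groups. It was found for 44 of 67 ribosomal protein genes and 5 of 18 host genes with an entry. TXNIP and S100P are genes with large increases and no tract at that base. The last 2 are a ribosomal protein gene without the tract (RPS29) and a gene with a large increase that has it (ZFP36L1), since the tract and the direction did not always go together.
RPL35 (chr9:124861938-124861967, minus strand): cgcctacttcCTCTTTCCCTCggagcgggc
RPS18 (chr6:33272065-33272094, plus strand): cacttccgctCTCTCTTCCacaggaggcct
RPS21 (chr20:62387093-62387122, plus strand): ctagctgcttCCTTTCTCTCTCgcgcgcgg
RPLP2 (chr11:809957-809986, plus strand): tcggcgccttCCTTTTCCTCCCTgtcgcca
RPL22L1 (chr3:170870176-170870205, minus strand): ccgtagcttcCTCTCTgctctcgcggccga
EEF1A1 (chr6:73521013-73521042, minus strand): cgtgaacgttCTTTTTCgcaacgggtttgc
SNHG12 (chr1:28581854-28581883, minus strand): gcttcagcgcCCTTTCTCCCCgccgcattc
SNHG19 (chr16:2155339-2155368, minus strand): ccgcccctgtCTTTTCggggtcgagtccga
ZFAS1 (chr20:49278632-49278661, plus strand): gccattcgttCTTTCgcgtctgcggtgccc
TXNIP (chr1:145996560-145996589, minus strand): ctcctgcttgaaactaacccctctttttct
S100P (chr4:6693868-6693897, plus strand): tgccagtgggacattttctcggccctgcca
RPS29 (chr14:49598691-49598720, minus strand): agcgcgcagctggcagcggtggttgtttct
ZFP36L1 (chr14:68796224-68796253, minus strand): tttcactttcCCCCTTgcacaaaaccgaac

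The libraries were similar in size and in composition. FPKM summed to 818984 over all genes in the WT library and to 767949 in the K177Q library, and 15870 and 15773 genes had a value above 0. The table gives no counts. If the lowest cluster of FPKM multiplied by transcript length stands for 1 fragment, each library held about 26700000 fragments, and the counting errors quoted below rest on that approximation and cover counting error only. Of the 16 mesenchymal and basal markers listed, 13 passed the minimum, and TWIST1, SPARC and CDH2 did not. VIM (vimentin) had 1539 FPKM in WT and 1543 FPKM in K177Q, and CD44 had 133 and 151 FPKM. Hormone receptors and several markers of other lineages were near 0. ESR1 and PGR, the estrogen and progesterone receptors, stayed at or under 0.012 FPKM in both, and the blood marker PTPRC and the endothelial marker CDH5 were at or under 0.052 FPKM. CD3E, which marks T cells, was listed at 0 in both libraries. The receptor gene ERBB2 had 24.3 and 28.3 FPKM, and of the epithelial markers EPCAM had 9.91 and 8.99 FPKM, KRT8 had 674 and 691 FPKM and CDH1 had 0.219 and 0.632 FPKM. Also detected were CD14, a monocyte marker, at 51.5 and 59.1 FPKM, and PECAM1 (0.537 and 0.753 FPKM), PDGFRB (0.829 and 1.02 FPKM) and COL1A1 (2.17 and 2.59 FPKM) at low levels. The part of these markers in the results was not tested.

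METTL3 itself (chr14:21498133-21511342) had 38.7 FPKM in the WT and 29.5 FPKM in the K177Q polysome library. Its log2 ratio was -0.39, with a counting error (SE) of 0.049 that covers no difference between cultures. In the sub-polysome libraries METTL3 had 9.39 and 5.07 FPKM, a log2 ratio of -0.88. FPKM cannot tell the viral transcript from the endogenous one, and the table carries no base that would identify the mutation.

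Over the 10667 genes the median log2 ratio was -0.02, with an SD of 0.305, and FPKM is relative to each library, so a change shared by all mRNAs would not appear. The ratio was at least 1.5-fold higher in K177Q for 192 genes (1.8%) and at least 1.5-fold lower for 257 genes (2.41%), or 4.21% in either direction. Some of these genes passed the minimum only through the library in which they were high. With at least 1 FPKM required in each of the 2 libraries, 148 genes were higher and 191 lower. Past 2-fold there were 33 higher and 57 lower genes. Which direction held more genes depended on the scaling of the libraries. After rescaling both to the same FPKM total (TPM), 323 genes were higher and 167 lower, or 65.9% higher among the genes past 1.5-fold against 42.8% as deposited. With equal totals over all genes other than ribosomal protein genes, 236 were higher and 215 lower, or 52.3%. Of the genes past 1.5-fold most were weakly expressed. Of the 5391 genes averaging 10 FPKM or more, 49 were higher and 47 lower. The SD of the log2 ratio was 0.498 in the decile of lowest expression (1 to 1.77 FPKM) and 0.225 in that of highest expression (from 115 FPKM). The plot of all genes against their mean FPKM shows this narrowing, with the ribosomal protein genes as a band under 0 at its right.

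**Figure D1:**
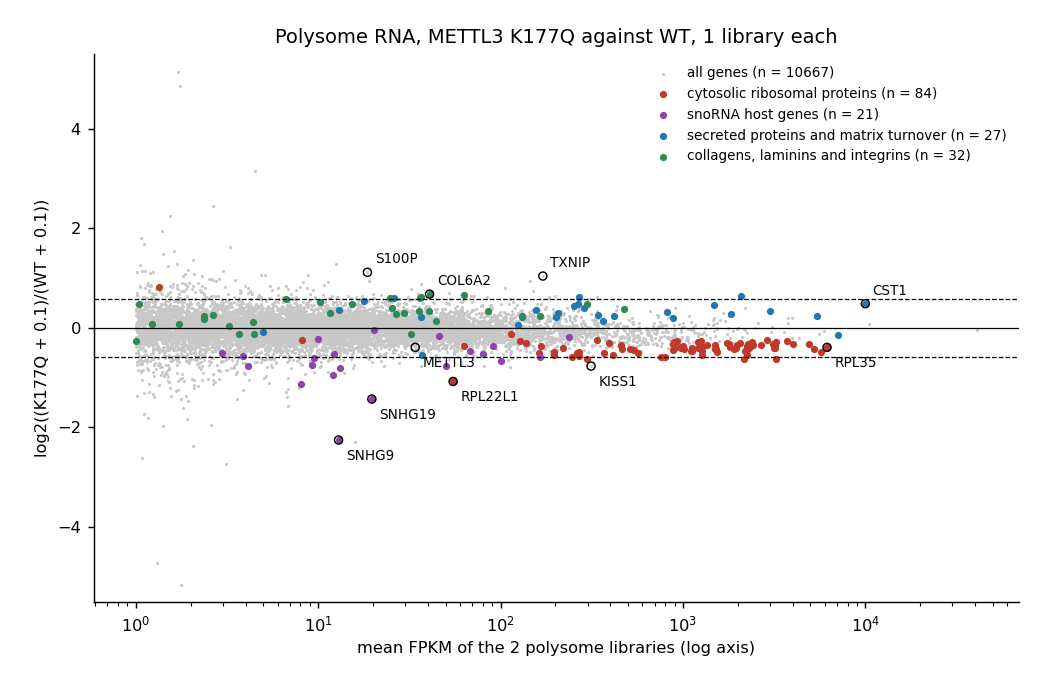
Each point is a gene, with its mean FPKM over the 2 polysome libraries on a log axis and its log2 ratio of K177Q to WT on the vertical axis. Dashed lines mark 1.5-fold and colours mark 4 gene lists. The 84 cytosolic ribosomal protein genes lie under 0 with 1 exception, and the snoRNA host genes lie under 0 without exception.

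Of the 5 most abundant polysome mRNAs, 2 differed by less than 0.1 on the log2 scale, and none passed 1.5-fold. S100A6, a calcium-binding protein, took 41473 FPKM in WT and 40496 FPKM in K177Q, a log2 ratio of -0.03 that turned to 0.06 under TPM, and ACTB, the cytoplasmic actin, took 10167 and 10750 FPKM. CST1 (cystatin SN, a secreted inhibitor of cysteine proteases) had the largest ratio of the 5, with 8329 FPKM in WT and 11660 FPKM in K177Q, a log2 ratio of 0.49. LGALS1 (galectin-1) had 7499 and 6745 FPKM, and RPL35 had 6996 and 5331 FPKM. The 10 most abundant genes together held 12.8% of the FPKM in WT and 13.2% in K177Q.

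Positions given for genes are those of GENCODE on GRCh38. The 15 largest increases at an average of 10 FPKM or more were all mRNAs. PRSS2 (trypsinogen 2, chr7:142760398-142774564) had 7.24 FPKM in WT and 17.9 FPKM in K177Q, a log2 ratio of 1.29 with a counting error of 0.137. Trypsinogen genes are close paralogs, so reads may be shared among them. S100P (chr4:6693878-6697170), another S100 calcium-binding protein, had 11.7 FPKM in WT and 25.5 FPKM in K177Q, a log2 ratio of 1.12. TXNIP (chr1:145992435-145996579), which binds thioredoxin and restrains glucose uptake, had 112 FPKM in WT and 230 FPKM in K177Q. Its log2 ratio of 1.04 had a counting error of 0.019, and it was the most abundant gene past 2-fold. RASD1, a Ras-related protein induced by glucocorticoids, had 98.6 and 190 FPKM, and MUC1, a transmembrane mucin, had 12.9 and 25.05 FPKM, with log2 ratios of 0.94 and 0.95.

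Matrix and surface proteins stood among the same increases. LOXL4 (chr10:98247690-98268194), an extracellular enzyme that cross-links collagen, had 113 FPKM in WT and 189 FPKM in K177Q, a log2 ratio of 0.74. COL6A2, a chain of collagen VI, had 31.4 and 50.3 FPKM, a log2 ratio of 0.68. LRP5, a co-receptor of Wnt ligands, had 39.8 and 64.6 FPKM, and the secreted protein ANGPTL2 had 15.4 and 24.6 FPKM, with log2 ratios of 0.70 and 0.68. KRT81, a hair keratin, had 77.4 and 135 FPKM, a log2 ratio of 0.80, and HLA-DRB5, an MHC class II chain with close paralogs, had 25.6 and 47.4 FPKM, a log2 ratio of 0.89. The remaining increases were those of ZG16B (0.92), CYP1B1 (0.87), HNRNPH2 (0.79) and ZFP36L1 (0.68), of which ZFP36L1 binds AU-rich elements and promotes mRNA decay.

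Of the 15 largest decreases, 10 were mRNAs and 4 were marked as lncRNAs. The largest was that of RPL36A-HNRNPH2 (chrX:101391011-101412297), a readthrough transcript that joins 2 neighbouring genes, with 26.5 FPKM in WT and 5.35 FPKM in K177Q and a log2 ratio of -2.29. HNRNPH2 (chrX:101408222-101414133), which overlaps it, went the other way, from 23.7 FPKM in WT to 41.1 FPKM in K177Q. Their summed FPKM was 50.2 in WT and 46.4 in K177Q, a log2 ratio of -0.11, and neither gene's own value is certain. With RPL36A, the other gene that the readthrough joins, RPL36A-HNRNPH2 summed to 1057 and 799 FPKM, a log2 ratio of -0.40, and all 3 genes summed to 1081 and 840 FPKM, a log2 ratio of -0.36. SNHG9 (chr16:1964895-1965509) had 21.5 and 4.42 FPKM, a log2 ratio of -2.25 with a counting error of 0.250, and SNHG19 (chr16:2154792-2155405) had 28.8 and 10.6 FPKM, a log2 ratio of -1.43.

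RPL22L1 (chr3:170864875-170870208), a paralog of the ribosomal protein RPL22, had 74.6 FPKM in WT and 35.3 FPKM in K177Q, a log2 ratio of -1.08 with a counting error of 0.041. KISS1 (chr1:204190341-204196491), the precursor of the kisspeptins and first described as a suppressor of metastasis, had 395 FPKM in WT and 232 FPKM in K177Q. At a log2 ratio of -0.77 it was the most abundant of the decreases. ELOF1, a transcription elongation factor, had 143 and 83.0 FPKM, a log2 ratio of -0.79. LSM10, a subunit of the particle that processes histone pre-mRNA, had 46.1 and 27.0 FPKM, a log2 ratio of -0.77, and NMB, the precursor of neuromedin B, had 18.1 and 9.67 FPKM, a log2 ratio of -0.90. The other decreases were those of SNHG15 (-0.95), MFSD14C (-0.90), ACYP2 (-0.81), SNHG1 (-0.80), TPM2 (-0.79), MESP1 (-0.77) and TMEM238 (-0.77). Outside the 15 in each direction, the next genes were SLC37A2 (0.66) and ITGA5 (0.66) above and LOC101930071 (-0.76) and ZFAS1 (-0.76) below. Each of the 30 genes stayed past 1.5-fold under each of the other pseudocounts, filters and scalings tried at that threshold, wherever it was kept.

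The ribosomal protein genes were lower in K177Q as a group. Of 86 genes of the 2 cytosolic ribosomal subunits and their paralogs in the table, 84 passed the minimum, and their log2 ratio had a median of -0.39 against -0.02 over all genes. The ratio was under 0 for 83 of the 84, where 53.4% of all genes were under 0. They held 17.6% of all FPKM in the WT polysome library and 14.3% in the K177Q library, with summed FPKM of 143735 and 109647. Most were short of the threshold, and 5 genes (5.95%, against 2.41% of all genes) were past 1.5-fold lower. RPS18 of the small subunit had 6656 FPKM in WT and 4765 FPKM in K177Q, a log2 ratio of -0.48. RPS21 had 3925 and 2547 FPKM, a log2 ratio of -0.62, RPS29 had 2640 and 1709 FPKM, a log2 ratio of -0.63, and RPL38 of the large subunit had 362 and 234 FPKM, a log2 ratio of -0.63. RPS12 (-0.59) and RPL22L1 were the other 2 past the threshold. At the other end RPL26L1, a paralog of RPL26, had 119 and 109 FPKM, a log2 ratio of -0.13, and the exception above 0 was RPL21, which was near the minimum with 0.942 and 1.74 FPKM and has many near-identical copies in the genome. Under TPM the median was -0.30, against 0.07 over all genes, and 83 genes were still under 0. Past 1.5-fold lower were then 1 of the 84 genes and 167 of all 10667 genes.

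Other mRNAs of the translation machinery lay on the same side with smaller ratios. Among 20 TOP mRNAs outside the ribosomal proteins, a list taken from background knowledge, the median log2 ratio was -0.25 and 19 were under 0. RACK1, a ribosome-bound scaffold protein, had 2079 FPKM in WT and 1590 FPKM in K177Q, a log2 ratio of -0.39. EEF1A1, which brings aminoacyl-tRNA to the ribosome, had 2531 and 2116 FPKM, a log2 ratio of -0.26, whereas EEF2, the translocation factor, had 296 and 281 FPKM, a log2 ratio of -0.08 that is smaller than the shift of 0.09 under TPM. EIF4B, a helicase cofactor of initiation, was the member above 0, with 32.0 and 34.3 FPKM. None of the 20 passed 1.5-fold. Of 13 eIF3 subunit genes, 12 passed the minimum, all but EIF3C, which was near 0 in both libraries. These 12 were under 0 as deposited, with a median of -0.19. TPM raised the log2 ratios of all genes by about 0.09, and 4 of the 12 were then above 0. The median of the 12 under TPM was -0.10, against 0.07 over all genes. EIF3H, the subunit studied as a partner of METTL3, had 69.3 FPKM in WT and 56.9 FPKM in K177Q, a log2 ratio of -0.28, and EIF3B had 188 and 179 FPKM, a log2 ratio of -0.07 that turned to 0.02 under TPM. NCBP1, the large subunit of the nuclear cap-binding complex, had 7.58 and 6.57 FPKM, a log2 ratio of -0.20. Over 29 other initiation factors the median was -0.06, which turned positive under TPM, with EIF5B, a GTPase of subunit joining, at 20.9 and 14.7 FPKM the lowest (-0.51).

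Genes that build ribosomes and mitochondria followed. The 36 factors of ribosome biogenesis had a median log2 ratio of -0.19, with 34 under 0. The lowest ratio of the 36, -0.49, was that of NIP7, which acts in ribosome assembly, at 30.1 FPKM in WT and 21.4 FPKM in K177Q. NOP56, a core protein of box C/D snoRNPs, had 57.2 and 42.7 FPKM, a log2 ratio of -0.42. The 78 mitochondrial ribosomal protein genes had a median of -0.18, with 69 under 0, and the 75 nuclear-encoded respiratory chain genes had a median of -0.18, also with 69 under 0. MRPS12 had 176 and 130 FPKM, a log2 ratio of -0.44, and ATP5F1E, the epsilon subunit of ATP synthase, had 52.4 and 35.4 FPKM, a log2 ratio of -0.57. No gene of these 3 lists passed 1.5-fold. Proteasome genes had a median of -0.13 over 37 genes and chaperones of -0.16 over 27 genes, and none passed 1.5-fold in either list. Under TPM these medians moved toward 0, by a shift of about 0.09 that all genes shared and that put the median of all genes at 0.07. They were then -0.10 for ribosome biogenesis, with 26 under 0, -0.08 for the mitochondrial ribosomal proteins, with 57 under 0, -0.08 for the respiratory chain, with 56 under 0, -0.03 for the proteasome and -0.06 for the chaperones.

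The start sequences can be set beside these values. A C at the annotated start followed by at least 4 C or T, read on the strand of the gene alone, was found at 4.04% of all 27305 RefSeq promoters and at 5.65% of the 8424 kept mRNA genes with an entry. The 476 kept mRNA genes with the tract had a median log2 ratio of -0.08, and the 7948 without it had -0.01. Without ribosomal protein genes the medians were -0.06 over 432 genes and -0.01 over 7925 genes. Among ribosomal protein genes, 67 had an entry, too small a share of the list for a statement about the whole of it. The 44 of these with the tract had a median of -0.41 and the 23 without it had -0.36, so those without the tract at the annotated base were lower in K177Q as well. An annotated start can lie a few bases from the one the cells use, so no match says only that these letters are not at this base.

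Shorter coding sequences went with lower ratios. A coding length was found in GENCODE 44 for 10223 of the 10314 kept mRNA genes. The median log2 ratio was -0.18 in the decile with the shortest coding sequences (up to 516 nucleotides) and 0.08 in that with the longest (from 3276 nucleotides). From each decile to the next the median was higher, with the exception of the seventh and the eighth (both 0.02). Spearman's rho across genes was 0.26 in polysome RNA and -0.32 for the sub-polysome ratios of the same genes. In polysome RNA it was 0.37 over the 5307 genes averaging 10 FPKM or more. These are descriptions over genes measured in the same libraries, not tests. Ribosomal protein genes are short, with a median of 441 nucleotides, and 54 of them fell in the first decile. Without them the median of that decile was -0.16 and rho was 0.25. Both measures are given for 4 lists. The respiratory chain genes had a median of 423 nucleotides and a median log2 ratio of -0.18, and the secreted proteins described below, with 846 nucleotides, had 0.31. The ribosome biogenesis factors, with a median of 1705.5 nucleotides, had -0.19, and the collagen, laminin and integrin genes, with 3561 nucleotides, had 0.30. The part that length has in the list medians was not tested.

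**Figure D2:**
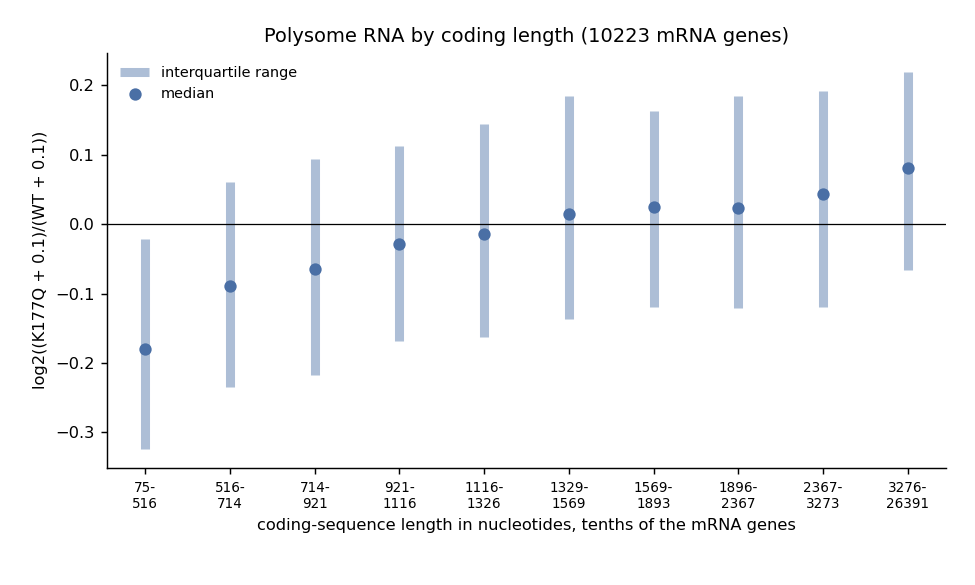
Median log2 ratio of K177Q to WT polysome FPKM (points) and interquartile range (bars) in deciles of the 10223 mRNA genes by coding-sequence length in nucleotides. The medians run from -0.18 in the shortest decile to 0.08 in the longest.

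Noncoding transcripts are described next. Of 262 transcripts that the table marks as lncRNA, 57 (21.8%) were at least 1.5-fold lower and 11 (4.20%) higher, with a median log2 ratio of -0.28. Of the 10314 mRNAs, 180 (1.75%) were lower and 175 (1.70%) higher, with a median of -0.02. The lncRNAs also had fewer fragments, with a median counting error of 0.198 against 0.065 for mRNAs, and the part of depth in this was not tested. The snoRNA host genes are transcripts whose introns carry snoRNAs and whose spliced exons are mostly short-lived and noncoding. All 21 that passed the minimum were under 0 (53.4% of all genes), 10 were at least 1.5-fold lower (2.41% of all genes), and the median was -0.58. Under TPM the median was -0.49, with 20 under 0 and 8 past 1.5-fold lower, where 167 of all 10667 genes were lower. GAS5 had 123.1 FPKM in WT and 76.999 FPKM in K177Q, a log2 ratio of -0.68, and ZFAS1 had 63.0 and 37.1 FPKM, a log2 ratio of -0.76. SNHG8 had 199 and 132 FPKM, a log2 ratio of -0.58 at the edge of the threshold. SNHG12 had 11.03 and 5.01 FPKM, a log2 ratio of -1.12. SNHG32, the most abundant with 253 and 224 FPKM, had -0.17, and SNHG16 had 20.7 and 20.04 FPKM, the member whose ratio turned above 0 under TPM. The tract of pyrimidines stood at the annotated start of 5 of 18 host genes with an entry, among them SNHG12, SNHG19 and ZFAS1 shown above.

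Antisense lncRNAs, which are named after the gene they overlap, had a median of -0.30 over the 83 of 1243 that passed the minimum, with 18 lower and 5 higher past 1.5-fold (2.41% and 1.8% of all genes). The median was -0.15 for those averaging 10 FPKM or more and 0 over all of them with no minimum. ATP2A1-AS1 had 7.38 FPKM in WT and 3.36 FPKM in K177Q, and SOCS2-AS1 had 0.425 and 1.72 FPKM, passing the minimum only through the K177Q library. The intergenic LINC transcripts had a median of -0.13 over the 39 of 1740 that passed the minimum and 0 with no minimum, with 5 lower and 2 higher past 1.5-fold (2.41% and 1.8% of all genes). The kit kept strand, but the strand setting of the counting is not given in the sources used here, so reads of an antisense RNA and of its partner may not have been separated. Of the nuclear lncRNAs on the list, NEAT1 had 5.98 and 4.53 FPKM, MALAT1 had 1.22 and 0.968 FPKM, and PVT1, the third that passed the minimum, had 1.41 and 1.81 FPKM, a log2 ratio of 0.34.

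Secreted proteins and those that remodel the matrix were higher in K177Q as a group. Over 27 genes the median log2 ratio was 0.31 and 24 were above 0, where 46.6% of all genes were above 0. Together they held 3.96% of the FPKM in WT and 5.11% in K177Q. CST4 (cystatin S) had 1635 FPKM in WT and 2545 FPKM in K177Q, a log2 ratio of 0.64, MMP14, a membrane-bound metalloproteinase, had 214 and 328 FPKM, a log2 ratio of 0.61, and STC1 (stanniocalcin-1) had 20.6 and 31.5 FPKM, a log2 ratio of 0.61. These 3 were past 1.5-fold higher (1.8% of all genes), and none of the list was past it lower (2.41% of all genes). Below the threshold, CTSD (cathepsin D) had 1241 and 1714 FPKM, a log2 ratio of 0.47. The exception in size was CST6 (cystatin M), with 43.9 and 29.9 FPKM, a log2 ratio of -0.55. Cystatins of this family are similar in sequence, so reads may be shared among CST1, CST2 and CST4.

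Collagens, laminins and integrins had a median of 0.30 over the 32 of 82 genes that passed the minimum (0.08 over the whole list with no minimum), with 28 above 0 (46.6% of all genes) and 5 past 1.5-fold higher (1.8% of all genes). LAMB3, a laminin beta chain, was the most abundant, with 411 FPKM in WT and 538 FPKM in K177Q, a log2 ratio of 0.39. ITGA5, the fibronectin receptor alpha chain, had 48.7 and 77.01 FPKM, a log2 ratio of 0.66. COL6A1 and COL6A2, which assemble into the same collagen, had log2 ratios of 0.61 and 0.68, and ITGB4, an integrin chain of hemidesmosomes, had 28.9 and 43.8 FPKM, a log2 ratio of 0.60. On the low side stood ITGAE, with 1.10 and 0.897 FPKM. Among 13 mesenchymal and basal markers the median was 0.18 and FN1 (fibronectin), ITGA5 and MMP14 were past 1.5-fold higher (1.8% of all genes), FN1 with 9.26 FPKM in WT and 14.52 FPKM in K177Q. CAV1 (caveolin-1) had 110 and 109 FPKM, a log2 ratio of -0.01 that turned to 0.08 under TPM.

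MHC class I genes had a median of 0.22 over 14 genes, with 10 of them above 0 (46.6% of all genes). None of them passed 1.5-fold as deposited, where 1.8% of all genes were higher. Under TPM 2 of them were past it higher, as were 323 of all 10667 genes. Immediate early genes had a median of 0.21 over 20 genes, 17 of them above 0. EGR1 had 1.85 and 3.64 FPKM and FOS had 1.05 and 1.75 FPKM, with log2 ratios of 0.94 and 0.69, and IER3, the most abundant, had 3691 and 4235 FPKM, a log2 ratio of 0.20. On a list of cytokines, chemokines and their regulators the median over 18 genes was 0.05. CCL2 was the lowest, with 9.66 FPKM in WT and 4.06 FPKM in K177Q, a log2 ratio of -1.23, and CSF1 the highest of this list, with 145 and 224 FPKM, a log2 ratio of 0.63. The chemokine gene CXCL10, which the list does not hold, had 1.34 and 2.49 FPKM, a log2 ratio of 0.84. IL6 had 186 and 218 FPKM, a log2 ratio of 0.23. CXCL8, the most abundant chemokine of the list, had 377 and 352 FPKM, a log2 ratio of -0.10.

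**Figure D3:**
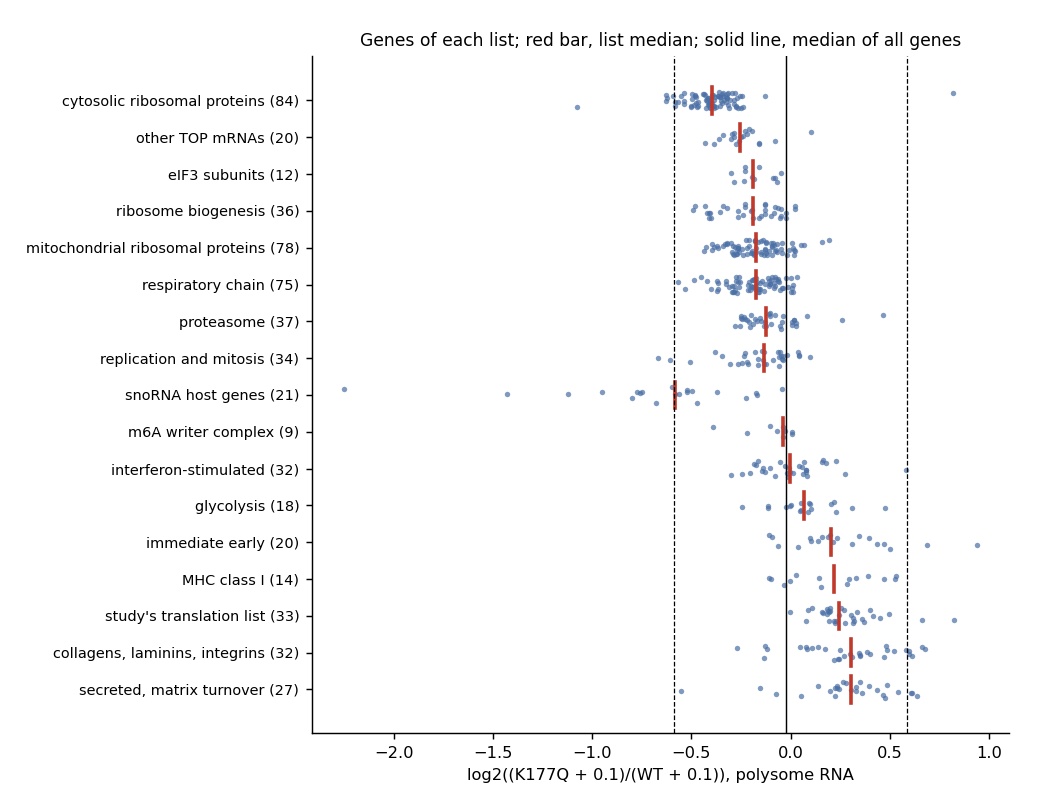
Log2 ratio of K177Q to WT polysome FPKM for each gene of 17 lists, with the number of kept genes in parentheses. Red bars are list medians, the solid line is the median of all genes and dashed lines mark 1.5-fold. The medians run from -0.58 for snoRNA host genes, over -0.39 for ribosomal proteins, to 0.31 for secreted proteins. Of the snoRNA host genes 10 of 21 lie past the dashed line at the left.

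The study's own list of translation targets was built from polysome profiling of these cells, so it is not independent of these values. Of its 60 genes 33 passed the minimum. Their median log2 ratio was 0.24, 32 were above 0 and 2 were past 1.5-fold higher (1.8% of all genes). SIPA1L3, a Rap GTPase-activating protein, had 8.17 FPKM in WT and 13.0 FPKM in K177Q, a log2 ratio of 0.66. MAST4, a kinase, had 0.735 and 1.38 FPKM, a log2 ratio of 0.82, and passed the minimum only through the K177Q library, so nothing is read from the count of 2. PTPN14 (chr1:214348700-214552449), a phosphatase that restrains YAP, had 6.71 and 8.12 FPKM, a log2 ratio of 0.27 with a counting error of 0.040. LPP (chr3:188153284-188890671), a LIM-domain protein of focal adhesions, had 2.25 and 2.64 FPKM, a log2 ratio of 0.22. In the polysome fraction taken alone PTPN14 and LPP were thus higher by less than 1.5-fold. The study applied its 1.5-fold cut to the ratio of polysome to sub-polysome RNA, which is a different measure. In sub-polysome RNA the log2 ratios of PTPN14 and LPP were -0.32 and -0.49. The genes of the list are long, with a median coding length of 3348 nucleotides. The second list holds metastasis genes that the study selected for decreased m6A together with transcripts reduced in K177Q cells. In polysome RNA its median was 0.12 over 25 genes, 20 of them above 0 (46.6% of all genes), the side opposite to that selection. The study measured the reduction in the input RNA of its m6A immunoprecipitation, and the difference was not tested. EGR1 and ITGB4 were the members of this list past 1.5-fold higher (1.8% of all genes), and none was past it lower (2.41% of all genes). Of the members that the study followed, IL6 and CAV1 had log2 ratios of 0.23 and -0.01. NRP2, a neuropilin, had 2.84 and 3.45 FPKM, a log2 ratio of 0.27. ULK1, an autophagy kinase that the study followed but that is not on this list, had 6.31 and 6.75 FPKM, a log2 ratio of 0.10.

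Several groups were close to the median of all genes or had a median whose sign depended on the scaling. The 9 genes of the m6A writer complex had a median of -0.04 (0.05 under TPM), with METTL3 the lowest and METTL14, its partner, at 3.05 FPKM in WT and 2.97 FPKM in K177Q. The 11 readers and erasers had a median of -0.04 (0.05 under TPM). Of these HNRNPA2B1 had 459 and 354 FPKM, a log2 ratio of -0.38, and the demethylase ALKBH5 had 46.6 and 54.4 FPKM, a log2 ratio of 0.22. The mTOR pathway genes had a median of -0.04 over 18 genes (0.05 under TPM), and LARP1 had 25.5 and 30.9 FPKM, a log2 ratio of 0.27. Interferon-stimulated genes had a median of -0.00 over 32 genes, tubulins -0.06 over 12, S100 genes -0.02 over 10, kinesins and dyneins -0.04 over 37, zinc finger genes -0.09 over 196 and aminoacyl-tRNA synthetases -0.09 over 20, and all of these medians were positive under TPM. Glycolysis genes had 0.07 over 18 genes, with SLC2A1, the glucose transporter GLUT1, at 207 and 289 FPKM (0.48). Sterol and fatty acid synthesis genes had 0.06 over 30 genes, and solute carriers had 0.04 over 157 genes. Genes of hnRNP and SR splicing factors were an exception, with a median of -0.12 over 32 genes and 23 of them under 0. Their median was still under 0 under TPM (-0.03). Among them HNRNPH1 had 101 and 77.3 FPKM (-0.38).

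Stress response genes had a median of 0.07 over 29 genes, but ATF4, the transcription factor of the integrated stress response whose own translation is controlled by upstream open reading frames, had 122 FPKM in WT and 85.1 FPKM in K177Q, a log2 ratio of -0.52. DDIT3, its target that encodes CHOP, had 19.96 and 15.2 FPKM, a log2 ratio of -0.39. Replication and mitosis genes had a median of -0.14 over 34 genes, with 30 under 0 as deposited and 20 under TPM. GINS2, a subunit of the replicative helicase, had 11.4 and 7.14 FPKM, a log2 ratio of -0.67, CENPE, a kinetochore motor, had 1.61 and 1.02 FPKM, a log2 ratio of -0.61, and CDT1, a licensing factor, had 35.2 and 24.8 FPKM, a log2 ratio of -0.51. Replication-dependent histone genes scattered widely, with 7 higher and 4 lower past 1.5-fold (1.8% and 2.41% of all genes) among the 25 of 66 that passed the minimum. Their median was 0.18, 0 with no minimum and 0.08 for those at 1 FPKM or more in each library. H1-4 had 11.04 and 4.75 FPKM. H2BC4 had 0.519 and 2.27 FPKM and passed the minimum only through the K177Q library. Their mRNAs end in a stem-loop and mostly lack the poly(A) tail by which these libraries were selected.

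The sub-polysome libraries of the same cultures, which hold 40S, 60S and 80S material, were set beside these values for the same genes, again with 1 library per genotype. Of the 192 genes higher in polysome RNA, 68 (35.4%) were also past 1.5-fold higher in sub-polysome RNA, where 3.58% of all genes were higher, 8 were past it lower and 116 were within it. Some of the 68, among them C1orf189 and RFPL4A, were under 1 FPKM in the WT polysome library. They passed the minimum only through the K177Q library, so the share of 35.4% includes genes kept because they were high there. TXNIP was higher in both, with 113 FPKM in WT and 192 FPKM in K177Q in the sub-polysome fraction, as were RASD1, KRT81, CST4, S100P and PRSS2. Of the 257 genes lower in polysome RNA, 27 (10.5%) were also lower in sub-polysome RNA, where 2.89% of all genes were lower, 23 were higher there and 207 (80.5%) were within 1.5-fold. KISS1, with 230 and 222 FPKM in the sub-polysome fraction, and RPL22L1, with 63.1 and 55.8 FPKM, belonged to the last group. Of the 15 largest decreases none was past 1.5-fold in sub-polysome RNA. Of the 15 largest increases, 7 were past it in the same direction and HNRNPH2 in the other.

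By list, the secreted proteins had medians above 0 in both fractions, 0.31 in polysome and 0.39 in sub-polysome RNA. In polysome RNA 3 of the 27 were past 1.5-fold higher. In sub-polysome RNA 25 of the 27 were above 0, as were 48.6% of all genes within 1.5-fold in polysome RNA. Cytosolic ribosomal protein genes were on opposite sides, with a median of -0.39 in polysome and 0.23 in sub-polysome RNA. The snoRNA host genes had -0.58 and 0.13, and the study's translation list had 0.24 and -0.46. Whether the genotypes differed more in one fraction than in the other was not tested. The plot of both fractions places the ribosomal protein genes in the upper left, the secreted proteins in the upper right and the translation list in the lower right.

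**Figure D4:**
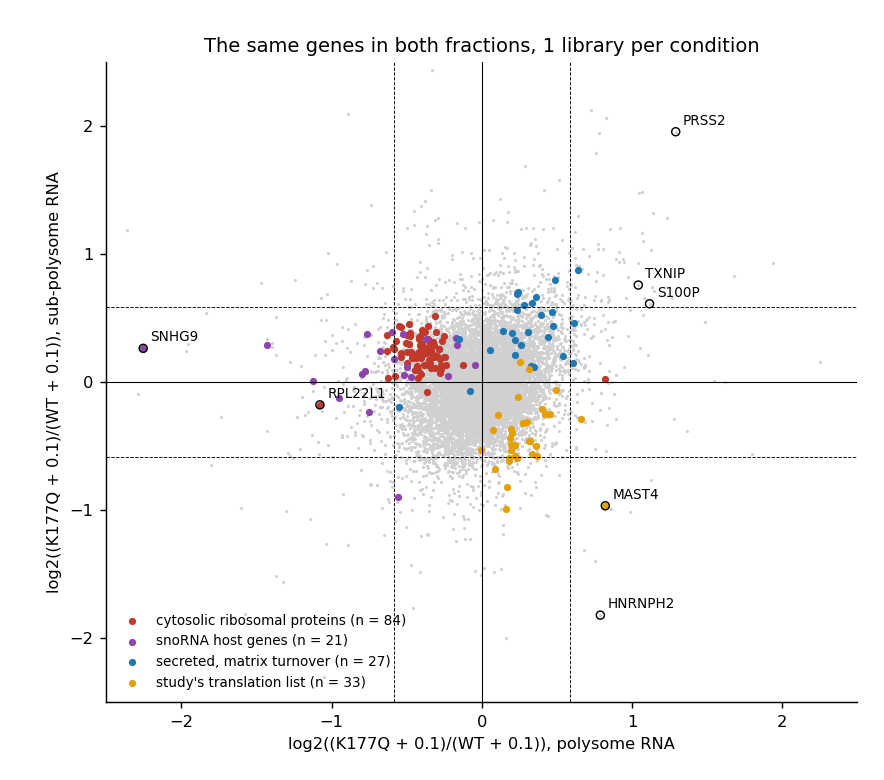
Log2 ratio of K177Q to WT in polysome RNA (horizontal) and in sub-polysome RNA (vertical) for the same genes, with 4 lists coloured and dashed lines at 1.5-fold. Axes stop at 2.5 and leave out 14 genes. Secreted genes are above 0 on both axes for the most part, whereas ribosomal protein genes had medians of -0.39 and 0.23.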

How the data were processed

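The authors sequenced poly(A)-selected polysome RNA on the Illumina NovaSeq6000 from directional libraries and deposited FPKM per gene. The submitters' processing notes name STAR 2.7, StringTie 2.1.5 and hg38, and the annotation and strand setting are not given in the sources used here. Values were used as deposited. A further 4 columns, named as a first replicate of the same conditions, matched no listed sample and were not used. Ratios were log2((K177Q + 0.1)/(WT + 0.1)) over genes averaging 1 FPKM or more, on a scale that understates changes of low genes, and 1.5-fold was the threshold. Medians and counts describe the lists. No test was made, since the columns used gave 1 library per genotype and fraction. The calculation was tested on simulated data.

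Named genes were METTL3 and 10 genes taken from the study, the 15 largest increases and decreases at 10 FPKM or more on average, the 5 most abundant, and per list the most abundant member, the extremes and up to 2 more past 1.5-fold. Some genes that this rule names are not reported here. Further members of the lists were named as examples after their values were seen. Members and lists were chosen with earlier results of these data known, and name patterns were tightened after the table was seen, to drop genes that are not members. Lengths and positions came from GENCODE 44 on GRCh38. Start sequences came from RefSeq, GRCh38.p14. The window for 1 fragment (FPKM multiplied by length from 30 to 45) was chosen after looking. Python 3.11.15, pandas 2.3.3, numpy 2.4.6 and matplotlib 3.10.9 were used.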

Additional observations from a re-analysis of the deposited data

Results flagged for a closer look

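Some results differed in direction between the 2 fractions under the same contrast of K177Q with WT. The difference between fractions was not tested, since each condition had 1 library. Of the genes past 1.5-fold, 8 were higher in polysome and lower in sub-polysome RNA, and 23 were lower in polysome and higher in sub-polysome RNA. The most abundant of these 31 were HNRNPH2 and LRRC26, which were named after their values were seen. HNRNPH2 had log2 ratios of 0.79 in polysome and -1.82 in sub-polysome RNA, and overlaps RPL36A-HNRNPH2. LRRC26, an auxiliary subunit of BK potassium channels, had -0.64 and 0.62. The splicing factor gene LUC7L2 had 0.76 and -1.40, and the F-box gene FBXO48 had -2.36 and 1.19. Both rest on low values. LUC7L2 had 0.807 FPKM in WT and 0.245 FPKM in K177Q in sub-polysome RNA, each under 1 FPKM. FBXO48 had 3.53 FPKM in WT and 0.605 FPKM in K177Q in polysome RNA, and passed the minimum only through the WT library.

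By list, cytosolic ribosomal protein genes had medians of -0.39 and 0.23, snoRNA host genes -0.58 and 0.13, and the study's translation list 0.24 and -0.46. The last was chosen by the study on polysome to sub-polysome ratios of these cells, so it is not independent evidence.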

How the results depend on the processing

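No paired analysis was possible because 1 polysome library per genotype was analysed, and for the same reason no replicate was left out. The counts of higher and lower genes moved most. They were 92 and 127 with a pseudocount of 1, 966 and 1188 with no filter, 639 and 813 with a minimum mean of 0.1 FPKM, 73 and 87 with 5 FPKM, 49 and 47 with 10 FPKM, 323 and 167 with TPM, and 33 and 57 at 2-fold. The median of all genes shifted by 0.09 under TPM and stayed within 0.1 throughout. Of 451 list medians recomputed, 442 moved by at most 0.1. The others were those of nuclear lncRNAs (-0.18 with a pseudocount of 1, 0.00055 with no filter, -0.0283 with at least 1 FPKM in each library), matrix and integrin genes (0.0797), histone (0), antisense (0) and LINC genes (0) with no filter, the m6A writers (-0.16 with 5 FPKM) and antisense lncRNAs (-0.15 with 10 FPKM). Named genes moved by more than 0.1 in 2 of 540 cases, RPL36A-HNRNPH2 (-2.12) and SNHG9 (-2.05) with a pseudocount of 1. The ratios of CAV1, EIF3B and S100A6, all near 0, turned positive under TPM (0.08, 0.02 and 0.06). Depth is known only approximately, and at the lowest expression counting error is largest.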

Other observations

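The following gene groups were noticed in the values and listed afterwards, so they are descriptions. Most kept genes of MHC class II, which present peptides to helper T cells, had a log2 ratio above 0 in polysome RNA, with a median of 0.59. Of 17 in the list, 11 passed the minimum, 10 were above 0 (46.6% of all genes) and 6 were past 1.5-fold higher (1.8% of all genes). HLA-DRA had 266 FPKM in WT and 408 FPKM in K177Q, a log2 ratio of 0.62, HLA-DRB1 had 155 and 242 FPKM, a log2 ratio of 0.64, and HLA-DPA1 had 89.4 and 135 FPKM, a log2 ratio of 0.59. HLA-DQB1 had 5.68 and 11.98 FPKM, a log2 ratio of 1.06. CD74, the invariant chain, had 776 and 1028 FPKM, a log2 ratio of 0.41. CIITA, the transactivator of these genes, had 1.37 and 1.29 FPKM. In sub-polysome RNA 10 of the 11 were above 0 as well. Paralogs among these genes may share reads.

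Type 2 cystatins, secreted protease inhibitors, had 15273 FPKM in WT and 20516 FPKM in K177Q when summed, a log2 ratio of 0.43. CST1, at 8329 and 11660 FPKM, held the largest part of these sums. Of 7 kept genes 6 were above 0 (46.6% of all genes), CST6 being the exception. In sub-polysome RNA 6 of the 7 were above 0 as well, with a median of 0.77 against 0.36 in polysome RNA.

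A readthrough pair resembled HNRNPH2 and RPL36A-HNRNPH2. TVP23C-CDRT4 had 3.53 FPKM in WT and 0.00144 FPKM in K177Q, whereas CDRT4 had 0.0237 and 3.48 FPKM. Summed, they had 3.56 and 3.48 FPKM. C1orf189 was listed at 0 in WT and had 3.41 FPKM in K177Q. In sub-polysome RNA it had 0.0737 FPKM in WT and 19.3 FPKM in K177Q, so its difference was not particular to polysome RNA. C1orf189, CDRT4 and TVP23C-CDRT4 each passed the minimum only through the library in which they were high. These genes were named after their values were seen.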
